A study of Danio rerio with 6 samples.

Results

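The genes described here are 10 genes of zebrafish chromosome 4 picked as neighbours of il26, the gene deleted in this study. They are ipo8, lsm8, si:dkey-222f8.3, dera, b2m, il17ra1a, hcfc2, nfyba, chst11 and mical3b. They were found in the count table by symbol, as 10 of the 15419 genes listed and 10 of the 11095 that had enough counts to be tested. They had been picked for their place near il26 with results of the same il26KO against WT comparison known. Their values are therefore given as a description, with no test.

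The data were bulk mRNA-sequencing of guts dissected from 5-dpf larvae, with 3 il26KO and 3 WT libraries, each from a pool of 10 to 15 guts. The il26KO larvae were il26-/- fish made with CRISPR/Cas9 and carried a deletion in il26, whereas the WT larvae, of the AB line, had no such deletion. Both genotypes came from adults that were clutchmates kept in separate tanks, so the parents, the tank and the genotype cannot be told apart. In a pool of whole guts, fewer cells of a type and less RNA per cell also cannot be told apart.

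IL-26 is a secreted cytokine of the IL-10 family, and in zebrafish and humans its gene lies in a cluster with the genes for interferon gamma and IL-22. When a mutation is made in one founder chromosome and bred to homozygosity, the DNA on either side of it is inherited with it, so that mutant and WT fish can also differ in variants of nearby genes. A difference at a gene close to the mutation can therefore follow the mutated gene or the chromosome it sits on. These counts hold only the 2 genotypes, so loss of IL-26 and linked DNA cannot be told apart here. No genotypes of the flanking DNA were analysed here.

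Total counts per library were between 15693057 and 28303340, and the smallest amount counted as detectable, 3 counts, was 0.106 to 0.192 CPM (the count per library scaled to a common library size). The targeted gene il26 was listed at 0 in all 6 libraries, WT included, so its counts could not check the genotype labels. The paper detected il26 in dissected WT guts of this age by RT-PCR, so the 0 is not read as absence. Some other genes, such as the muscle gene pvalb2, were also listed at 0 in every library, while the muscle gene actc1b had 130725 counts over the 6 libraries. The enterocyte markers were tested for 8 of 8 genes, and none was called. Their summed level was 20772 to 22038 CPM in il26KO and 18616 to 23999 CPM in WT. Of these genes, fabp2 had 2 to 12 counts per library and was under the floor in WT replicate 2. Of the leukocyte markers 4 of 5 were listed, with a summed level of 2.56 to 4.55 CPM in il26KO and 2.83 to 4.22 CPM in WT, and the macrophage gene mpeg1.1 was listed at 0. Summed levels overlapped between the genotypes for 10 of the 12 marker lists. They did not for the erythroid list, at 9.14 to 19.1 CPM in il26KO and 19.6 to 38.1 CPM in WT. Nor did they for the enteroendocrine list, at 181 to 188 CPM in il26KO and 195 to 203 CPM in WT. The enteroendocrine genes did not share a direction. Of these, pyyb was higher in il26KO without overlap, with a log2 fold change of 0.20 ± 0.085 (SE). By contrast, gcga, penka and neurod1 were lower, and their genotypes overlapped. The part of both lists in the results was not tested.

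Of the 10 genes, 3 passed an adjusted p-value of 0.05 in the fit over all genes (edgeR quasi-likelihood test, Benjamini-Hochberg), 1 higher and 2 lower in il26KO. Over all tested genes 0.108% passed, with 0.0631% higher and 0.0451% lower. The 3 genes were ipo8 and dera, which fell, and si:dkey-222f8.3, which rose. In 6 of the 10 genes the il26KO and WT libraries did not overlap, against 10.9% of all tested genes, and the same 6 had an unadjusted p-value below 0.05, against 6.03%. Of these, 2 were higher, as were 3.52% of all tested genes, and 4 were lower, as were 2.51%. Because the genes were picked from this comparison, nothing is read from these shares. The log2 fold change was below 0 for 7 genes and above 0 for 3, with a median of -0.27, while the median over all tested genes was 0.011. The median absolute log2 fold change was 0.55, compared with 0.10 over all tested genes.

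**Figure D1:**
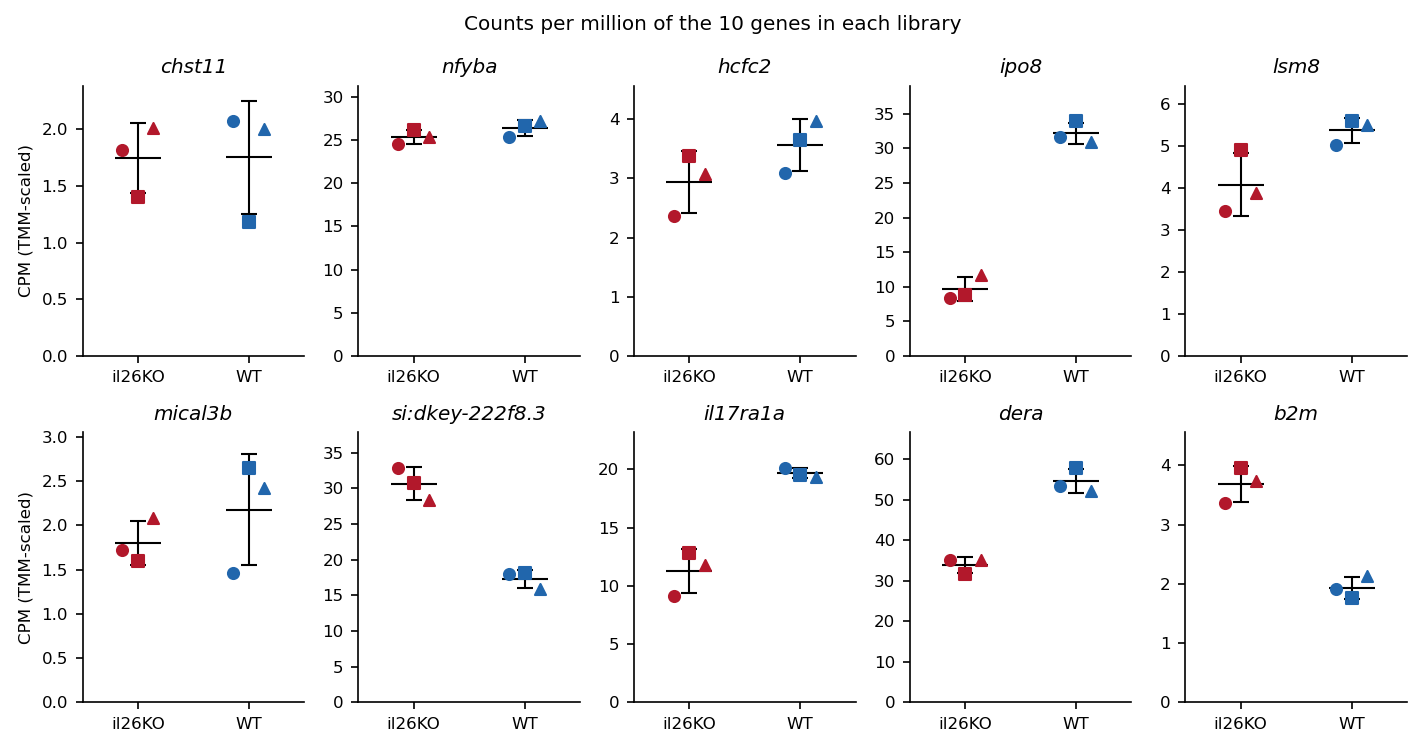
Level of each gene in every library, in CPM scaled to TMM library sizes on an axis from 0, with il26KO on the left and WT on the right of each panel; the lines are the mean ± SD of 3 libraries and the symbol is the replicate number. The il26KO points lie apart from the WT points for ipo8, lsm8, si:dkey-222f8.3, il17ra1a, dera and b2m, and overlap them for the other 4 genes.

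In the RefSeq gene table of the assembly GRCz12tu, all 10 genes lay on the same side of il26, that of the lower coordinates. This assembly is not danRer11, to which the reads were aligned, so the gene order is given without coordinates. Places are counted over tested genes, with -1 for the tested gene next to il26 on that side. The genes formed 4 groups along the chromosome, with chst11, nfyba and hcfc2 at -49 to -47, ipo8, lsm8 and mical3b at -44 to -42, si:dkey-222f8.3 at -17, and il17ra1a, dera and b2m at -12 to -10. By distance in bases, 4 of the 10 genes were among the 100 tested genes nearest to il26: si:dkey-222f8.3, il17ra1a, dera and b2m. The genes from chst11 to mical3b, ipo8 among them, were not. Values are given group by group, starting with that nearest to il26, as CPM in replicates 1, 2 and 3 of each genotype.

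The group nearest to il26 held an immune receptor, a metabolic enzyme and an antigen presentation gene side by side, and their log2 fold changes differed in sign. b2m encodes beta-2-microglobulin, the light chain that MHC class I molecules need to reach the cell surface. Its level was 3.36, 3.96 and 3.74 CPM in il26KO, against 1.91, 1.77 and 2.13 CPM in WT. All il26KO libraries were above all WT libraries, on few reads, with 74, 62 and 106 counts in il26KO and 47, 48 and 51 counts in WT. The means were 3.69 ± 0.305 CPM in il26KO and 1.94 ± 0.183 CPM in WT (SD, n = 3 each), a difference on the log2 scale of 0.93 ± 0.15 (SE), and the gene did not pass the adjusted threshold.

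dera encodes deoxyribose-phosphate aldolase, which splits deoxyribose 5-phosphate from the breakdown of deoxynucleosides. It had 35.1, 31.6 and 35.0 CPM in il26KO, against 53.5, 57.9 and 52.2 CPM in WT. The il26KO libraries were close together and well below every WT library. dera fell to 62.3% of the WT level, with means of 33.9 ± 1.99 CPM in il26KO and 54.5 ± 2.99 CPM in WT (SD, n = 3 each) and a log2 fold change of -0.68 ± 0.080 (SE). Leaving out any one of the 6 libraries, from either genotype, ended the call, although the log2 fold change then stayed between -0.73 and -0.64.

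il17ra1a encodes a chain of the receptor for IL-17 cytokines, which in mammals act on epithelial cells in mucosal defence. Its level was 9.17, 12.8 and 11.8 CPM in il26KO, against 20.1, 19.5 and 19.3 CPM in WT. The WT libraries were nearly equal, with a coefficient of variation of 2.16%, the lowest of the 10 genes, and the il26KO libraries were all lower and more spread, at 16.8%. The means were 11.3 ± 1.89 CPM in il26KO and 19.7 ± 0.424 CPM in WT (SD, n = 3 each). On the log2 scale the difference was -0.81 ± 0.12 (SE), and the gene did not pass the adjusted threshold.

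The tested genes that flank this group had smaller log2 fold changes. mkrn1, next to il17ra1a on the far side from il26, had a log2 fold change of -0.06 ± 0.078 (SE). msrb3, a methionine sulfoxide reductase gene next to b2m on the il26 side, had 52.1, 48.1 and 48.6 CPM in il26KO and 42.0, 44.0 and 39.1 CPM in WT. Its genotypes did not overlap either, with a log2 fold change of 0.25 ± 0.077 (SE, with 0.592 as the adjusted p from edgeR).

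si:dkey-222f8.3 is known in the count table by a clone name only, and no function is given for it here. The RefSeq table lists braf among its synonyms, while braf is also a separate gene of the count table and the next tested gene towards il26. si:dkey-222f8.3 had 32.9, 30.8 and 28.3 CPM in il26KO, against 18.03, 18.1 and 15.9 CPM in WT. All il26KO libraries were above all WT libraries, and the gene rose 1.77-fold, with means of 30.7 ± 2.28 CPM in il26KO and 17.3 ± 1.27 CPM in WT (SD, n = 3 each). On the log2 scale the difference was 0.82 ± 0.091 (SE). It lay between 0.75 and 0.88 with any single library omitted, and leaving out any one of the 6 libraries, from either genotype, ended the call.

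The genes on both sides of si:dkey-222f8.3 had smaller values. braf, a kinase of the MAP kinase pathway, had 13.9, 13.5 and 14.9 CPM in il26KO and 12.4, 12.2 and 12.8 CPM in WT, which did not overlap, with a log2 fold change of 0.18 ± 0.084 (SE). tnnt2c, on the other side, had -0.10 ± 0.27 (SE). How reads shared between si:dkey-222f8.3 and braf were counted is not given in the sources used here, so the split between the 2 genes is uncertain.

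The largest difference among the 10 genes was that of ipo8, farther out on the chromosome. ipo8 encodes importin-8, a transport receptor of the importin-beta family that carries proteins into the nucleus. It had 8.40, 8.88 and 11.7 CPM in il26KO, against 31.6, 33.9 and 31.0 CPM in WT, from 185, 139 and 332 counts in il26KO and 778, 922 and 742 counts in WT. The highest il26KO library was far below the lowest WT library. ipo8 fell to 30.2% of the WT level, with means of 9.66 ± 1.79 CPM in il26KO and 32.2 ± 1.56 CPM in WT (SD, n = 3 each) and a log2 fold change of -1.73 ± 0.13 (SE). It stayed called when each library was left out in turn, with a log2 fold change between -1.90 and -1.65.

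lsm8, the gene next to ipo8, encodes a subunit of the nuclear Lsm ring that binds U6 small nuclear RNA. Its level was 3.45, 4.92 and 3.88 CPM in il26KO, against 5.04, 5.60 and 5.51 CPM in WT. The highest il26KO library lay just under the lowest WT library. The log2 fold change was -0.41 ± 0.15 (SE), the gene was not called, and its unadjusted p-value was below 0.05 in 2 of the 6 fits that left out a library.

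mical3b encodes a flavoprotein monooxygenase of the MICAL family, which oxidises actin filaments. It had 1.72, 1.60 and 2.08 CPM in il26KO and 1.46, 2.65 and 2.42 CPM in WT. The genotypes overlapped and the log2 fold change of -0.26 ± 0.25 (SE) was about as large as its error. On the other side of ipo8, si:ch211-125a15.1 had a log2 fold change of -0.19 ± 0.11 (SE), so the difference at ipo8 was not shared at its size by the tested gene on either side.

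In the outermost group the genotypes overlapped for every gene. hcfc2 encodes a relative of host cell factor, a cofactor of chromatin-modifying complexes, and had 2.36, 3.39 and 3.07 CPM in il26KO and 3.09, 3.64 and 3.97 CPM in WT. nfyba encodes the B subunit of NF-Y, the trimeric factor that binds CCAAT boxes, and had 24.6, 26.2 and 25.4 CPM in il26KO and 25.4, 26.6 and 27.2 CPM in WT. chst11 encodes a sulfotransferase that modifies chondroitin, and had 1.82, 1.41 and 2.01 CPM in il26KO and 2.07, 1.18 and 2.005 CPM in WT. For hcfc2 the overlap was narrow, as only il26KO replicate 2 was above the lowest WT library. For nfyba, il26KO replicates 2 and 3 lay between the lowest WT library and the other WT libraries. For chst11 the libraries of the genotypes were interleaved.

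Their log2 fold changes were -0.29 ± 0.18 for hcfc2, -0.06 ± 0.071 for nfyba and 0.02 ± 0.26 for chst11 (SE). The narrow error of nfyba came with 3669 counts over the 6 libraries, compared with 250 for chst11 and 462 for hcfc2. The sign of chst11 changed without il26KO replicate 1, il26KO replicate 3 or WT replicate 2. In the RefSeq table chst11 and nfyba overlap each other and also slc41a2b, and lsm8 overlaps si:ch73-139j3.4. The strand setting of the counting is not given in the sources used here, so values of these overlapping genes are uncertain. The other 7 genes overlap no gene of that table.

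**Figure D2:**
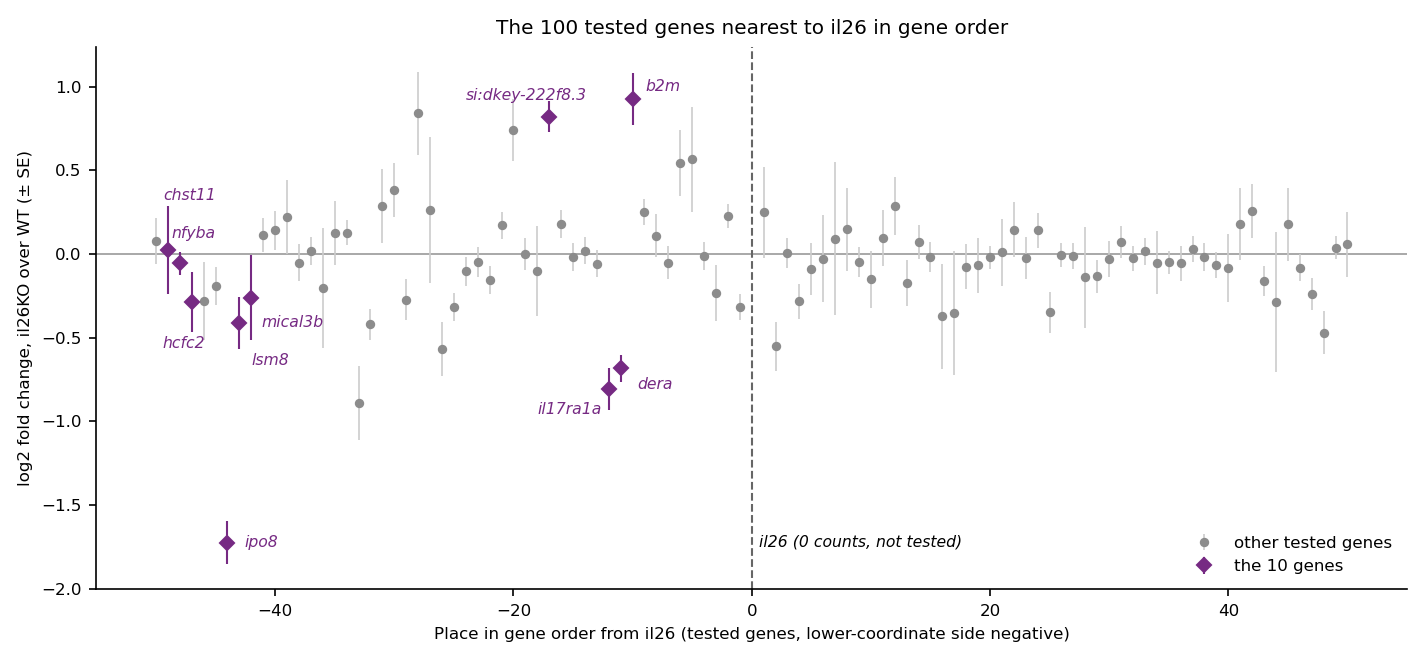
Log2 fold change of il26KO over WT (± SE) for the 100 tested genes nearest to il26, by place in gene order, with the 10 genes as diamonds and the other 90 as grey points. All 10 lie on the left, lower-coordinate side, where ipo8 is at -1.73 and b2m at 0.93, and the points on the right side stay closer to 0.

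The rest of the neighbourhood was then described by position alone. Of the 100 tested genes nearest to il26, 3 were called, all of them among the 10 genes. At an unadjusted p-value below 0.05 there were 22, with 8 higher and 14 lower in il26KO, against 6.03% of all tested genes. Genotypes did not overlap in 29 of the 100 genes, against 10.9% of all tested genes. Without the 10 genes, 16 of the other 90 (17.8%) had an unadjusted p-value below 0.05 and 23 (25.6%) did not overlap. Of the 324 tested genes on the rest of chromosome 4, 15 (4.63%) had an unadjusted p-value below 0.05 and 26 (8.02%) did not overlap. On the other chromosomes 5.90% of 10602 tested genes had an unadjusted p-value below 0.05 and 10.8% did not overlap.

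The 2 sides of il26 had different values. On the lower-coordinate side, 17 of 50 genes had an unadjusted p-value below 0.05, 8 higher and 9 lower in il26KO, and the median absolute log2 fold change was 0.22. Without the 10 genes this was 11 of 40, 6 higher and 5 lower, and the median was 0.19. On the upper-coordinate side, 5 of 50 had an unadjusted p-value below 0.05, all lower in il26KO, with a median absolute log2 fold change of 0.08. Over all tested genes this median was 0.10. Both sides were cut at 50 tested genes, which need not span the same distance in bases. The difference between the sides was not tested. Window size mattered to the share, which was 35% for the nearest 20 genes, 26% for the nearest 50 and 13.5% for the nearest 200. These windows held 1, 4 and 10 of the 10 genes, which were picked with results of this comparison known. The shares are therefore not set by place alone. Beyond chst11, among the 51 tested genes next on the same side, 3 had an unadjusted p-value below 0.05.

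**Figure D3:**
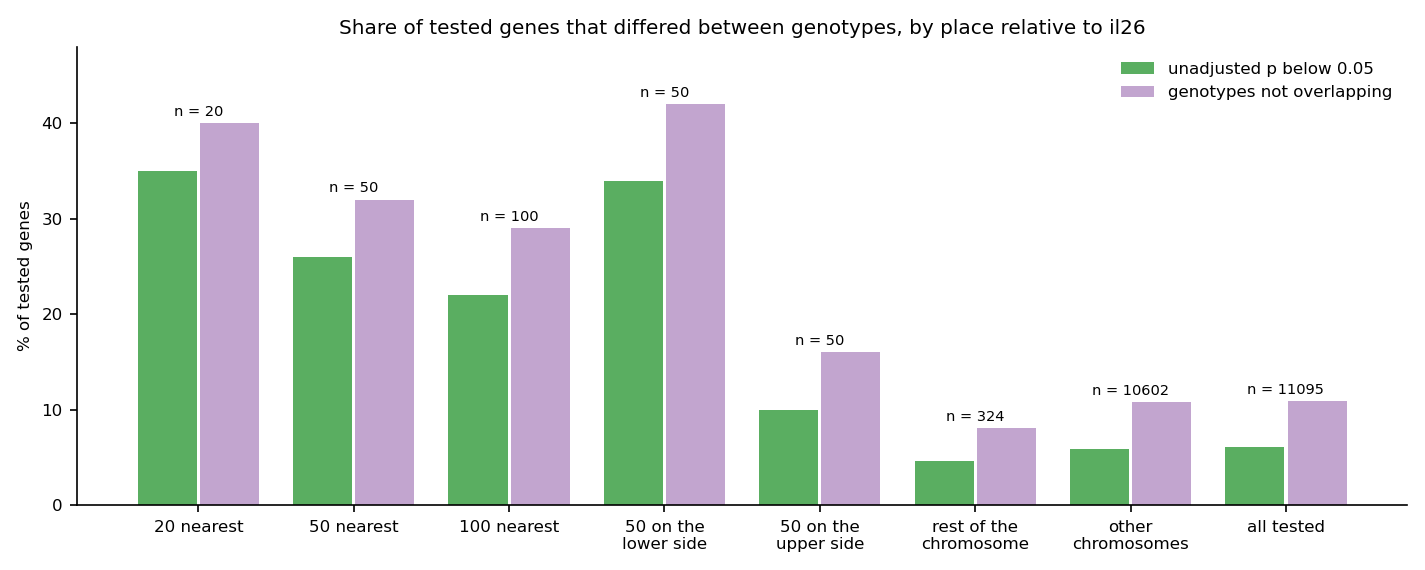
Share of tested genes, in % on an axis from 0, with an unadjusted p-value below 0.05 (green) or with il26KO and WT libraries that do not overlap (purple), for windows around il26, the rest of its chromosome, the other chromosomes and all tested genes. The share is 34% and 42% on the lower side, 10% and 16% on the upper side, and 6.03% and 10.9% over all tested genes. The bars for the lower side and the 100 nearest include all 10 genes, which were picked with results of this comparison known. Without them the lower side had 27.5% and 37.5%.

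Between the groups of the 10 genes the values were mixed. From mical3b to si:dkey-222f8.3, 7 of 24 tested genes had an unadjusted p-value below 0.05, and log2 fold changes ran from -0.89 for stab2 to 0.84 for tspan11. From si:dkey-222f8.3 to il17ra1a none of 4 did, and log2 fold changes ran from -0.06 for mkrn1 to 0.18 for braf. From b2m to il26, 4 of 9 did, with values from -0.32 for dyrk2 to 0.57 for vhll. Genes with values near 0, such as mkrn1, thus lay between genes whose genotypes did not overlap.

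Outside the 10 genes, the 5 genes of the window with the smallest p-values were ppfibp1a, stab2, dyrk2, btbd11a and gdi2, and none passed the adjusted threshold. ppfibp1a, a liprin-beta gene, had 17.4, 18.3 and 17.1 CPM in il26KO and 20.8, 24.7 and 25.2 CPM in WT, a log2 difference of -0.42 ± 0.095 (SE, with 0.285 as the adjusted p from edgeR). stab2, a scavenger receptor gene of endothelial cells, had 0.726, 0.831 and 0.811 CPM in il26KO and 1.26, 1.55 and 1.59 CPM in WT, or -0.89 ± 0.22 (SE, with 0.377 as the adjusted p from edgeR). In both genes every il26KO library was below every WT library.

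The other 3 also had genotypes that did not overlap. gdi2, which encodes an inhibitor of GDP release from Rab proteins, had 176, 194 and 179 CPM in il26KO and 239, 232 and 214 CPM in WT, or -0.32 ± 0.081 (SE, with 0.411 as the adjusted p from edgeR). btbd11a had 3.495, 2.68 and 3.88 CPM in il26KO and 1.99, 1.84 and 2.26 CPM in WT, a log2 difference of 0.74 ± 0.19 (SE, with 0.385 as the adjusted p from edgeR). dyrk2, a protein kinase gene, is the tested gene next to il26 on the side of the 10 genes. It had 13.1, 12.2 and 12.8 CPM in il26KO and 15.9, 15.8 and 15.8 CPM in WT, or -0.32 ± 0.078 (SE, with 0.385 as the adjusted p from edgeR).

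A further list, called here the cytokine neighbourhood, held 10 genes of chromosome 4. Not all of them lie close to il26 in this gene order. il22 had 28 counts over the 6 libraries, ifng1 had 3 and ifng1r was listed at 0, so none of these was tested. Of the 7 tested, none was called by either edgeR test or by DESeq2. An unadjusted p-value below 0.05 was found for 2, dyrk2 (lower) and cand1 (higher), against 6.03% of all tested genes. cand1, an exchange factor for cullin ubiquitin ligases, had 78.4, 82.0 and 78.7 CPM in il26KO and 72.0, 65.8 and 66.4 CPM in WT, a log2 difference of 0.23 ± 0.073 (SE, with 0.636 as the adjusted p from edgeR). It lies at -2, beside dyrk2, and differed in the opposite direction.

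The other 5 had log2 fold changes of 0.25 ± 0.27 for mdm1, which lies next to il26 on the upper side, 0.12 ± 0.073 for rap1b, 0.13 ± 0.082 for nup107, -0.35 ± 0.21 for slc35e3 and -0.13 ± 0.11 for mdm2 (SE). Only rap1b among these 5 had genotypes that did not overlap.

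To see whether genes that work with the 10 genes also differed, 9 lists of partner genes were examined, holding 131 genes, of which 78 were tested. Nearly all lie on other chromosomes, and of those tested tnpo3 and psmb10 are on chromosome 4. No partner gene was called by edgeR's quasi-likelihood test or by DESeq2, and 1, mhc1uba, was called by the edgeR likelihood ratio test. At an unadjusted p-value below 0.05 there were 4 of 78, against 6.03% of all tested genes. In 9 of 78 the genotypes did not overlap, against 10.9%. By sign, 38 were higher and 40 lower in il26KO. The median absolute log2 fold change of the 78 was 0.073, against 0.10 over all tested genes. Signs within each list are given below as a description, and nothing is read from them.

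**Figure D4:**
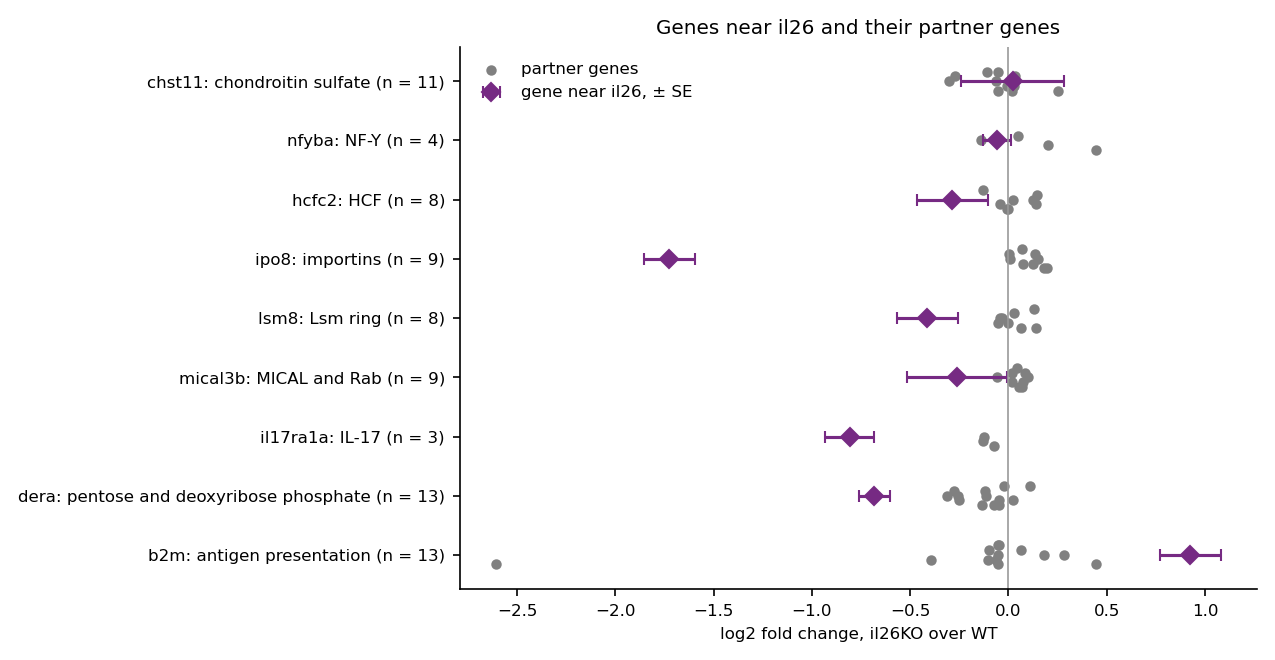
Log2 fold change of il26KO over WT for 9 of the 10 genes (diamonds, ± SE) and for the tested members of each partner list (grey points; n is their number). The points of most lists lie within 0.5 of 0, while ipo8 is at -1.73 and the partner gene mhc1uba is at -2.61.

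For ipo8, all 9 tested importins and transport partners had log2 fold changes above 0, and none passed the threshold. The 3 with the smallest p-values were the import receptor genes ipo7 at 0.15 ± 0.082 and kpnb3 at 0.18 ± 0.10, and the export receptor gene cse1l at 0.20 ± 0.16 (SE). ipo7, the closest relative of ipo8, averaged 411 ± 26.6 CPM in il26KO and 369.7 ± 15.98 CPM in WT (SD, n = 3 each), and its genotypes did not overlap. The list had 0 of 9 genes with an unadjusted p-value below 0.05.

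For lsm8, 8 tested genes of the Lsm ring and of U6 particles had 4 values above and 4 below 0. lsm7 had a log2 fold change of 0.13 ± 0.097, lsm1 of 0.14 ± 0.12 and prpf31 of -0.05 ± 0.080 (SE). For mical3b, 8 of 9 MICAL and Rab genes were above 0, and the 3 with the smallest p-values were rab8a at 0.08 ± 0.096, micall2a at 0.10 ± 0.15 and rab10 at 0.05 ± 0.069 (SE). None of these 17 genes had an unadjusted p-value below 0.05.

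For b2m, 13 genes of class I antigen presentation were tested, with 4 above and 9 below 0. mhc1uba, a class I heavy chain gene of chromosome 19, had 7, 0 and 8 counts in il26KO, against 23, 40 and 42 counts in WT. Every il26KO library was below every WT library, with a fitted log2 fold change of -2.61 ± 0.54 (SE, with 0.247 as the adjusted p from edgeR) that rests on few reads. tapbp.1, a tapasin gene, had a log2 fold change of -0.40 ± 0.19 and psmb8a, an immunoproteasome gene, of 0.45 ± 0.38 (SE). b2ml, the second beta-2-microglobulin gene and also on another chromosome, averaged 311 ± 9.89 CPM in il26KO and 323 ± 13.8 CPM in WT (SD, n = 3 each), a difference on the log2 scale of -0.06 ± 0.075 (SE).

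For dera, 13 genes of deoxyribose and pentose phosphate metabolism were tested, with 2 above and 11 below 0. pgm1, a phosphoglucomutase gene, averaged 271 ± 10.9 CPM in il26KO and 336 ± 51.3 CPM in WT (SD, n = 3 each), a difference on the log2 scale of -0.31 ± 0.11 (SE, with 0.745 as the adjusted p from edgeR). pgm2 had -0.28 ± 0.19 and rpia -0.12 ± 0.10 (SE). pgm1 was the only one of the 13 with an unadjusted p-value below 0.05.

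For il17ra1a, 3 genes of the IL-17 pathway were tested and all were below 0, none with an unadjusted p-value below 0.05. The adaptor gene traf6 had a log2 fold change of -0.12 ± 0.087, the receptor gene il17rd of -0.13 ± 0.16 and the transcription factor gene cebpb of -0.07 ± 0.10 (SE). The cytokine genes il17a/f1, il17a/f2 and il17d were listed at 0. With 23 and 6 counts over the 6 libraries, il17a/f3 and il17c were not tested. Only 8 of the 19 genes of this list were in the count table.

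For nfyba, 4 NF-Y genes were tested, with 3 above and 1 below 0. nfya, the subunit that contacts the CCAAT sequence, averaged 5.45 ± 0.148 CPM in il26KO and 3.999 ± 0.123 CPM in WT (SD, n = 3 each), without overlap, and a log2 fold change of 0.45 ± 0.11 (SE, with 0.398 as the adjusted p from edgeR). nfyal had 0.20 ± 0.12, and nfybb, the paralog of nfyba, had -0.14 ± 0.15 (SE).

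For hcfc2, 8 genes of host cell factor complexes had 4 values above and 4 below 0, with kmt2a at 0.15 ± 0.089, hcfc1a at 0.14 ± 0.099 and ogt.1 at -0.13 ± 0.097 (SE). For chst11, 11 genes of chondroitin sulfate synthesis had 4 above and 7 below 0. chsy1, a chondroitin synthase gene, averaged 24.3 ± 1.60 CPM in il26KO and 20.4 ± 1.87 CPM in WT (SD, n = 3 each), or 0.25 ± 0.095 (SE, with 0.753 as the adjusted p from edgeR). dse had -0.27 ± 0.18 and chst12a -0.30 ± 0.22 (SE).

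Genes with a pattern like that of ipo8 were sought by Pearson r of log2 CPM over the 6 libraries. As the libraries share genotype and depth, this is a description with no p-value. Of the tested genes, 96 had an r of at least 0.9. The 10 highest ran from 0.968 to 0.990 and included mapk14b, krt96, dera, mindy1, chchd3b, dnajc4, glsa, irf1b and dyrk2. Among these 10, dera and dyrk2 lie on chromosome 4, which holds 424 of the 11095 tested genes. Of the genes described here, dera is the only one. Both ipo8 and dera were picked with results of this comparison known, so nothing is read from these counts. In all 10 the genotypes did not overlap, so r follows genotype and not the size of a difference. mapk14b, with the highest r, had a log2 fold change of -0.13 ± 0.065 (SE).

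**Figure D5:**
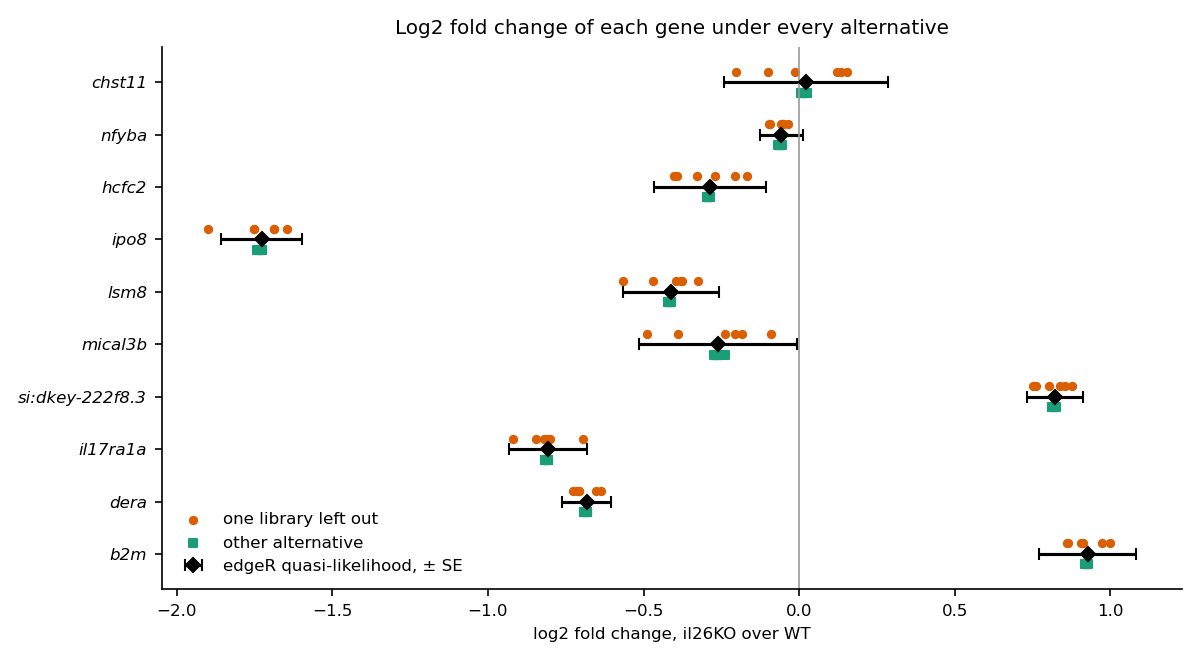
Log2 fold change of il26KO over WT of each of the 10 genes in the edgeR quasi-likelihood fit (black, ± SE), with each library left out in turn (orange) and under other filters, scalings, tests and a replicate block (green). Of the 10 genes chst11 changes sign, when single libraries are left out, and ipo8 stays between -1.90 and -1.65.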

How the data were processed

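The authors deposited raw, unnormalized counts per gene for 6 libraries. From the labels and methods of the study, stranded poly(A) TruSeq libraries were sequenced with paired-end reads of 100 bp, checked with FastQC 0.11.8 and aligned to danRer11. The aligner, counting tool, annotation and strand setting are not given in the sources used here. The 10 genes and all lists were chosen with earlier results of these data known.

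Counts were tested with edgeR 4.0.16 (filterByExpr with a minimum count of 10 and total of 15, TMM, quasi-likelihood test on genotype, two-sided, Benjamini-Hochberg over 11095 genes, called at 0.05). The other 4324 genes, 1899 of them at 0 in every library, were set aside. The SE was the absolute log2 fold change over the square root of F. CPM used TMM library sizes. Floors of 3 counts cover counting error only. Libraries were grouped by title. Between every pair of libraries counts differed beyond sampling (16.3 to 53.1 in chi-square over its degrees of freedom). The lowest value was across genotypes, between il26KO replicate 2 and WT replicate 1. Pairs within il26KO were at 17.2 to 35.3 and pairs within WT at 25.6 to 53.1. Nothing states that replicates were separate clutches, so p-values measure the spread between these pools.

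Gene order came from the RefSeq gene table of GRCz12tu, in which 14311 genes matched by symbol, 930 by synonym and 178 not. Named were the 10 genes, every called gene and the 5 smallest p-values otherwise among the 100 tested genes nearest to il26, up to 3 partners per list, the tested genes of the cytokine neighbourhood, and the genes most correlated with ipo8, of which 1 is not reported here. Flanking genes and genes at the ends of a range fall outside this rule and were chosen after their values were seen. The code was tested on simulated data. Alternatives were RLE scaling, other filters, a replicate block, the likelihood ratio test of edgeR, robust fits, DESeq2 1.42.0, other windows and leaving out each library.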

Additional observations from a re-analysis of the deposited data

How the results depend on the processing

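The number of genes called (12) was 2 with a replicate block, 93 with the likelihood ratio test, 83 with DESeq2, and 3 to 8 when single libraries were left out. Of the 10 genes, 3 were called; this was 0 with the block, 5 with the likelihood ratio test, 5 with DESeq2, and 1, ipo8, in each fit that left out a library. With the block the log2 fold change of ipo8 was -1.74 ± 0.13 (SE, with 0.0780 as the adjusted p from edgeR), so its call was lost too. The genes added by both other tests were il17ra1a and b2m. The 100 genes nearest to il26 gave the same numbers, 0 with the block, 5 with each of the other tests and 1 without any single library. The causes were not tested. Correlations of deviations between libraries with the same replicate number were -0.23, -0.04 and 0.11. With 3 libraries per genotype, these values cannot tell whether the numbers pair the samples.

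At an unadjusted p-value below 0.05, leaving out single libraries gave 424 (without WT replicate 2) to 1024 genes (without WT replicate 3), 17 to 23 of the 100 nearest and 2 to 7 partner genes. The nearest 50 gave 13, on fewer genes. The likelihood ratio test called 1 partner gene. With no count filter, the call at ipo8 among the 100 nearest was lost because the window then held other genes. chst11 reversed without il26KO replicate 1 (-0.01), il26KO replicate 3 (-0.10) and WT replicate 2 (-0.20), and its highest value was 0.15. The other 9 genes kept their sign in every alternative run. RLE scaling, the robust fit and a filter of 10 counts in every library changed none of the calls among the 10 genes. Few reads limit chst11, mical3b, b2m, hcfc2 and lsm8, with 250 to 671 counts in all. The gene il26 itself was listed at 0 in every library of both genotypes.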

Other observations

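By chromosome, the share of tested genes with an unadjusted p-value below 0.05 was 8.73% on chromosome 4 (37 of 424), the second highest of the 25 chromosomes after chromosome 22 at 13.3% (50 of 375). Over all tested genes the share was 6.03%. The 37 include 6 of the 10 genes, which were picked with results of this comparison known, so nothing is read from the rank. On chromosome 4, the 100 tested genes closest to il26 in gene order held 22 of these 37, and all 10 genes described above. Without the 10 genes, 16 of the other 90 had such a p-value. When the 100 nearest were taken by distance in bases, the window held 4 of the 10 genes, with 2 called and 21 at an unadjusted p-value below 0.05. ipo8 was not among these 4.

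In blocks of 10 tested genes, the lower-coordinate side had 5, 4, 4, 2 and 2 genes with an unadjusted p-value below 0.05, counted outward from il26 to place -50, and 1, 0, 1, 0 and 1 from there to place -100. On the upper side the first 5 blocks had 2, 0, 1, 0 and 2. Genes picked with results of this comparison known are in these numbers. They are b2m in the block next to il26, si:dkey-222f8.3, il17ra1a and dera in that at -20 to -11, and ipo8 and lsm8 in that at -50 to -41. Nothing is therefore read from the order of the numbers. Over all tested genes the share was 6.03%. These blocks were not tested against each other. Of further genes near il26 with large absolute values, 2 are given here: calua at place 2, with a log2 fold change of -0.55 ± 0.15 (SE, with 0.428 as the adjusted p from edgeR), and tspan11 at place -28, with 0.84 ± 0.25 (SE, with 0.560 as the adjusted p from edgeR). tspan11 averaged 3.74 ± 1.21 CPM in il26KO and 2.08 ± 0.264 CPM in WT (SD, n = 3 each), and calua 11.1 ± 0.739 CPM in il26KO and 16.3 ± 3.14 CPM in WT. Both were chosen after their values were seen.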
